A study of Mus musculus with 6 samples.

Results

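Heparan sulfate is a sugar chain carried by proteins of the cell surface and the matrix, and secreted Wnt, FGF and BMP ligands bind it. Glypicans and syndecans are the core proteins, the Ext enzymes build the chain, sulfotransferases such as Ndst1 and Hs6st1 add sulfate groups, and the extracellular sulfatases Sulf1 and Sulf2 take the 6-O-sulfate groups off again. In embryos, heparan sulfate is known to affect how far such ligands spread and how well receptors bind them. The genes described are the sulfatases Sulf1 and Sulf2, the glypicans Gpc3, Gpc4 and Gpc6, the syndecan Sdc1, the chain-building enzymes Ext1 and Ext2, and the sulfotransferases Ndst1 and Hs6st1. All probe sets annotated with 1 of these 10 symbols were taken, which gave 24 of 45037 probe sets and 9 of 18193 genes with a symbol of their own. No Ndst1 probe set was analysed here. The genes were chosen from results of these same arrays, the log2 differences between null and wild-type pools, so those differences are given as a description, with no test.

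The samples were 3 pools of Wnt3a null embryos and 3 pools of Wnt3a wild type embryos, each pool from 3 embryos of 1 genotype and like stage. All embryos were of a mixed C57BL/6 and 129/Sv background, aged E7.75 to 8 with 0 to 2 somites, and only the node and primitive streak region was used, the posterior midline where Wnt3a is made. Because RNA was amplified from whole pieces of tissue, fewer cells of a type and less RNA per cell cannot be told apart. A probe set is a group of short probes whose combined brightness on the array is its signal. Signals are linear, in arbitrary units, and cannot be compared between probe sets.

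Median signals of the 6 arrays lay between 73.6 and 86.1, and the number of arrays limits the precision. The Wnt3a probe set had 961, 761 and 1009 in null pools, against 864, 1058 and 996 in wild-type pools. The labels do not say which exons the null allele lacks, so these values are no check of the genotype. Streak and node markers had a summed signal of 6468 to 11337 in null pools and 12498 to 14181 in wild-type pools, with 12 of 14 probe sets lower by mean. Presomitic mesoderm markers summed to 4904 to 5955 in null pools and 7688 to 8572 in wild-type pools, with 5 of 5 lower. Lateral and cardiac mesoderm markers summed to 5308 to 6040.3 in null pools and 2850.3 to 3847 in wild-type pools, with 12 of 17 higher, and neural plate markers to 7294 to 9419.5 in null pools and 4453 to 5418 in wild-type pools, with 11 of 13 higher. These 4 marker sums did not overlap between genotypes. A sum follows its brightest probe sets most and does not measure the amount of a tissue. Sums did overlap for visceral and yolk sac endoderm, at 73589 to 105957 in null pools and 60266 to 151175 in wild-type ones. Of its 19 probe sets, 12 were lower by mean. Sums also overlapped for blood and endothelium, at 1614 to 2307 in null pools and 1397 to 2274 in wild-type ones. Of its 14 probe sets, 11 were higher by mean. Only 5 of the 14 had a mean signal at or above the median probe set signal, 4 of them higher and 1 lower. For Gapdh, the 3′ control probe set over the 5′ one gave 2.09 to 2.39 in the null group and 2.51 to 3.00 in the wild-type group, and for actin the same ratio overlapped, at 2.38 to 3.83 in the null group and 2.68 to 3.69 in the wild-type group. Wild-type pool 1 had a signal of 4.31 for the Y-linked gene Eif2s3y, against 1053 to 1788 on the other arrays. The part of tissue make-up, RNA integrity and sex in the differences below was not tested.

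Differences between genotypes went both ways among the heparan sulfate genes. The mean log2 signal was lower in null pools for 13 of the 24 probe sets, against 48.3% of all probe sets, and their median log2 difference was -0.01, against 0.01 over all. For 0 of 24 did the 3 null signals all lie below or all above the 3 wild-type signals, against 4.41% (below) and 5.57% (above) of all probe sets. Pools carry replicate numbers, and arrays of the same number deviated together, so differences were also taken within each number. By number, 6 of the 24 were lower in null pools in all 3 pairs and 2 were higher in all 3, against 13.7% and 15% of all probe sets. The 6 were 1 probe set each of Sulf2, Gpc3 and Ext1 and 3 of Gpc6, and the 2 were 1 each of Sulf1 and Sdc1. Over all probe sets limma called 0, or 0%, lower and 0, or 0%, higher at an adjusted p under 0.05, and so 0 of the 24, while 5.05% of all probe sets had an unadjusted p under 0.05. Nothing is read from these counts for the 24, since the genes were chosen from the same differences. Of the 24, 20 had a mean signal at or above the median probe set signal of 71.5, and the other 4 are dim.

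**Figure D1:**
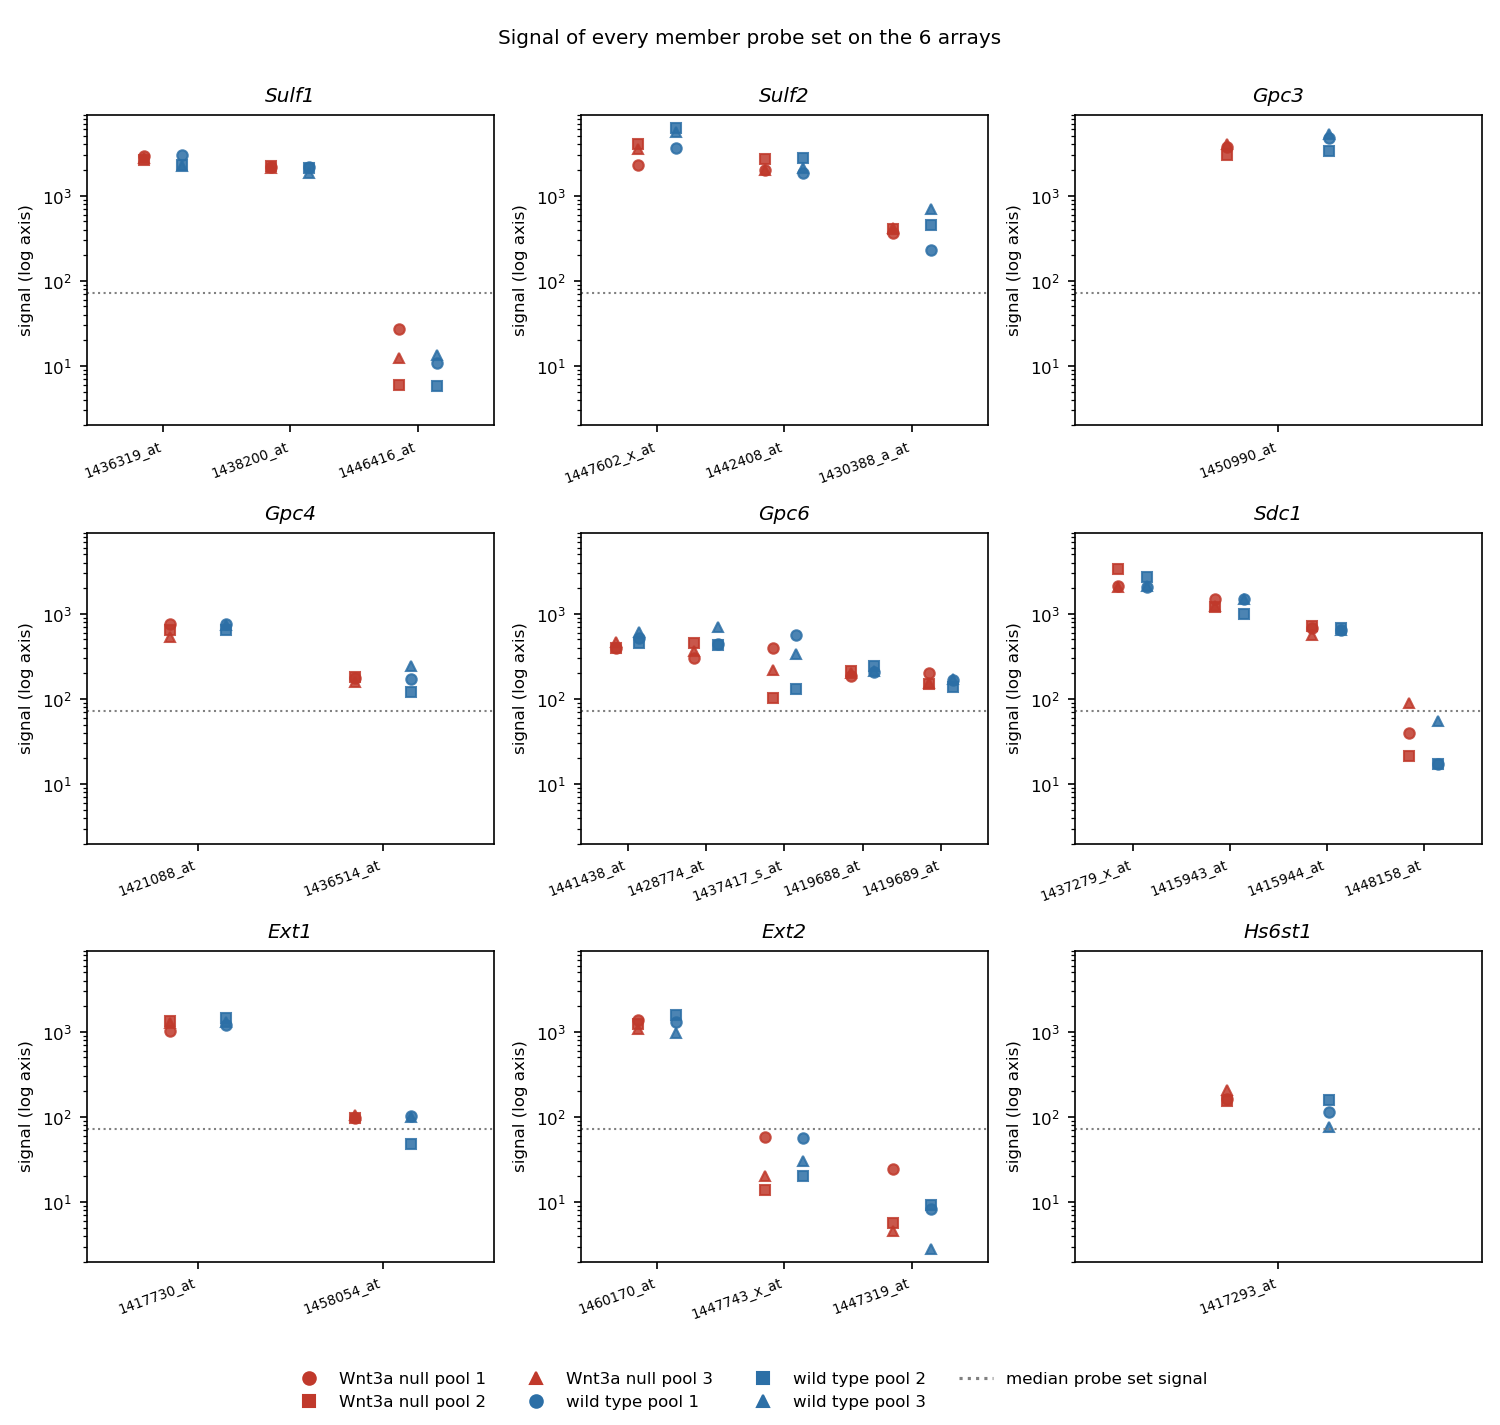
Signals of all 24 probe sets on the 6 arrays, by gene; each point is 1 pool, the y axis is logarithmic and the dotted line is the median probe set signal of 71.5. Wnt3a null pools (red, left) and wild-type pools (blue, right) overlap for every probe set shown.

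Differences between genotypes lay mostly within 0.5 on the log2 scale for the 20 brighter probe sets. At that size or above there was 1 lower, a Sulf2 probe set, and 1 higher, that of Hs6st1, against 3.06% and 6.34% of all probe sets at or above the median signal. Sulf2 and Hs6st1 act on the same sulfate group, the first removing it outside the cell and the second adding it in the Golgi. Gpc3 was lower in null pools by a smaller amount in each pair. To show the DNA in front of these 3 genes, the 250 bases before the gene start are given below from RefSeq (GRCm38.p6), read along the gene's own strand, with each GC box (GGGCGG or its complement CCGCCC) in capitals. The GC box is bound by zinc finger factors of the Sp family.
Sulf2, minus strand of chr2:166155684-166155933: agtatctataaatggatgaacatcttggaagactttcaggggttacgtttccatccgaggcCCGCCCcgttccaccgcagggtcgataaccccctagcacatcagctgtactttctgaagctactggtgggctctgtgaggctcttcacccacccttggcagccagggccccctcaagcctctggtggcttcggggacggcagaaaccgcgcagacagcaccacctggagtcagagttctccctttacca
Gpc3, minus strand of chrX:52613975-52614224: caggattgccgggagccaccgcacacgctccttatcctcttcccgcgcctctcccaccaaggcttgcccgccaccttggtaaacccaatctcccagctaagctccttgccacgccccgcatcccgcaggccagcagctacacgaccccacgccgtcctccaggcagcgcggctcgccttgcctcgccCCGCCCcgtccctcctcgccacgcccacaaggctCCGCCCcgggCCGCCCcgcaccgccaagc
Hs6st1, plus strand of chr1:36068150-36068399: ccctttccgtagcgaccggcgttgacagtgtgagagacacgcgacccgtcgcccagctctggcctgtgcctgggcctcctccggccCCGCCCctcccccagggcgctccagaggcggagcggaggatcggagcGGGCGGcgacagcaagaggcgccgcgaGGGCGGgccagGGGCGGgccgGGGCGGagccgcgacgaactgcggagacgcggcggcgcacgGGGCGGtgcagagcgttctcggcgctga

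Windows of this kind were found for 6 of the 9 measured genes, 7 in all because Sulf2 has 2 starts. The Hs6st1 window held 6 GC boxes and was 76.4% G and C, the Gpc3 window held 3 at 71.6%, and the Sulf2 window printed held 1 at 57.2%. The second Sulf2 window held 0, that of Sdc1 3, that of Gpc4 1 and that of Ext2 0. A GC box on either strand was thus present in 5 of the 7 windows, against 32.7% of 32851 windows in the table. TCF/LEF factors, the nuclear mediators of Wnt signalling, bind the letters CTTTGNN, where each N is A or T. No such stretch, on either strand, occurred in the 7 windows (0 of 7, against 14.8% of all windows), which says nothing about sites elsewhere. The matches describe letters only.

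Sulf2 was represented by 3 probe sets that did not go together. Probe set 1447602_x_at had 2307, 4028 and 3562 in null pools 1, 2 and 3, against 3610.1, 6261 and 5578 in wild-type pools 1, 2 and 3. The groups overlapped, because null pool 2 was above wild-type pool 1, yet pool 1 was the lowest and pool 2 the highest in both genotypes. Within numbers the log2 differences were therefore nearly the same, at -0.65, -0.64 and -0.65, a mean of -0.64 with an SD over pairs of 0.0058 (n = 3 pairs), or 1.56-fold lower in null. An SD over pairs of 0.01 or less was seen in 30 of the 22519 probe sets at or above the median signal, 0.133%. That bound was not planned and the genes were chosen from the same differences, so nothing is read from this share. Group means with their SD were 3299 ± 889.9 for the null and 5149.7 ± 1376 for the wild type (n = 3 each). Affymetrix gives the ending x to probe sets with probes that may also bind other sequences, so this signal may not come from Sulf2 alone.

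The other Sulf2 probe sets had no such difference. Probe set 1442408_at had 2027, 2695 and 1998 in null pools, against 1872, 2768 and 2098 in wild-type pools. It shared the high pool 2 of both genotypes, and its differences of 0.12, -0.04 and -0.07 averaged 0.00 ± 0.10 (log2, SD over 3 pairs). Probe set 1430388_a_at had 368, 409 and 423 in null pools, against 232, 448 and 693 in wild-type pools. Here the null pools were close together and the wild-type pools spread on both sides of them, with pair differences of 0.67, -0.13 and -0.71.

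A limma fit that took the replicate number as a block, with eBayes options trend and robust, known beforehand to make calls on these arrays, called Sulf2 1447602_x_at lower and 0 of the other 23. It called 0.0311% of all probe sets lower and 0.0178% higher, 22 in all. Nothing is read from this call, since it was known when the genes were chosen. The call was lost without the pools numbered 1, without those numbered 3, and with 50 added to each signal before the log, where the mean difference was -0.63. Visceral endoderm marker sums were 73589, 89418 and 105957 in null pools 1, 2 and 3, against 60266, 151175 and 79074 in wild-type pools 1, 2 and 3. In wild-type pools they had the order of this probe set, and in null pools pool 1 was the lowest of both while the highest was pool 3 for the markers and pool 2 for the probe set. Of the marker lists, only that of visceral endoderm is set beside the probe set here. The part of this tissue in the signal of the probe set was not tested.

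**Figure D2:**
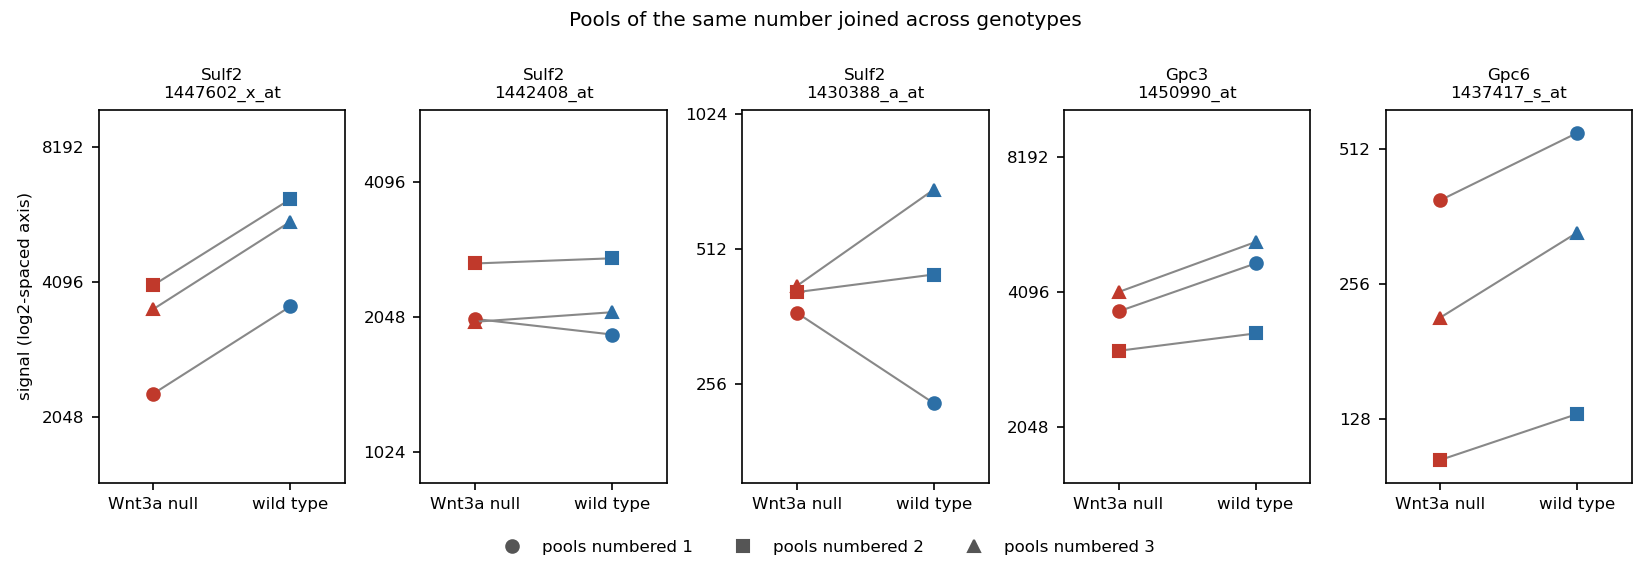
Signals of 5 probe sets with pools of the same number joined; the y axis is logarithmic, with the same height per doubling in each panel, and points are single pools. The 3 lines of Sulf2 1447602_x_at are parallel, with log2 differences of -0.65, -0.64 and -0.65, while those of the other Sulf2 probe sets slope both ways.

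Of the 19338 other probe sets with 1 symbol and a signal at or above the median, those whose log2 signals followed Sulf2 1447602_x_at most closely over the 6 arrays belonged to Hax1 (Pearson r = 0.997), Mre11a (0.991), Slc25a42 (0.987), Sema4b (0.985) and Ttc28 (0.984). These are descriptions over 6 arrays that share the pool order. Their log2 differences, null minus wild type, were -0.16 for Hax1, -0.23 for Mre11a, -0.50 for Slc25a42, -0.46 for Sema4b and -0.55 for Ttc28. The Hax1 signals ran from 13024 to 14696 in null pools and from 14398 to 16602 in wild-type pools.

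Sulf1, the other sulfatase, had close to equal signals in both genotypes. Probe set 1438200_at had 2186, 2230.0 and 2130.0 in null pools, against 2155, 2106 and 1871 in wild-type pools, a mean difference (log2) of 0.10 ± 0.08 (SD over 3 pairs). It was higher in null in each pair, by 0.02, 0.08 and 0.19. Probe set 1436319_at had 2916, 2646 and 2780.3 in null pools, against 3000.3, 2295 and 2242 in wild-type pools, and pair 1 went the other way, with a mean difference of 0.16 ± 0.18. The third, 1446416_at, was dim, at 6.01 to 27.1 in the null and 5.87 to 13.5 in the wild type.

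Among the glypicans, which are tied to the outer cell membrane by a lipid anchor, Gpc3 had 3709.5, 3029.8 and 4097 in null pools, against 4744, 3313 and 5297 in wild-type pools. Pool 2 was the lowest in both genotypes and the null pool was below its partner in each pair, at log2 differences of -0.35, -0.13 and -0.37. The mean was -0.28 ± 0.14 (SD over 3 pairs), 1.22-fold lower, and the groups overlapped. Gpc3 is a glypican known for restraining growth of the embryo, and its gene lies on the X chromosome, as does Gpc4. In pair 1 the wild-type pool lacked Y-linked signal. The X-linked gene Xist had 5047, 1871 and 2707 in null pools, against 7440, 2054 and 2408 in wild-type pools. The mix of sexes thus may vary between pools, and its part in the Gpc3 differences was not tested.

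Gpc4, a glypican known for roles in gastrulation movements, had 2 probe sets that did not differ in 1 direction. Probe set 1421088_at had 748, 652 and 529 in null pools, against 762, 649 and 728 in wild-type pools. Pairs 1 and 2 were level, at -0.03 and 0.01, and pair 3 was lower in null, at -0.46. Probe set 1436514_at had 178, 182 and 156 in null pools, against 169.6, 121 and 241 in wild-type pools, and its mean difference of 0.01 ± 0.61 covered both directions.

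Gpc6, a glypican of mesenchymal tissues, was measured by 5 probe sets, of which 4 had a lower mean in null pools and 3 were lower in each pair. Probe set 1437417_s_at had 394, 104 and 216 in null pools, against 556, 131 and 333 in wild-type pools. Pools 1, 3 and 2 stood in this falling order in both genotypes, and the pair differences were -0.50, -0.34 and -0.63, a mean of -0.49 ± 0.14. Without null pool 2 the difference of its group means turned to 0.01, and the range between pools of a genotype was wider than the distance between genotypes. The ending s marks probe sets shared by several transcripts, which may be of different genes.

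Probe set 1441438_at of Gpc6 had 398, 401 and 468 in null pools, against 516, 453 and 603 in wild-type pools, with a mean difference of -0.30 ± 0.11. Null pool 3 alone was above a wild-type pool, namely pool 2. Probe set 1419688_at had 187, 214 and 203 in null pools, against 208, 244 and 213 in wild-type pools, with a mean difference of -0.14 ± 0.06. Probe set 1428774_at, at 301, 453 and 366 in null and 437, 428 and 690.1 in wild-type pools, averaged -0.46 ± 0.50 and was higher in null in pair 2. The fifth, 1419689_at, went the other way in pairs 1 and 2 and averaged 0.08 ± 0.22, at 199.8, 150.2 and 152 in null and 166, 137 and 170.2 in wild-type pools.

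**Figure D3:**
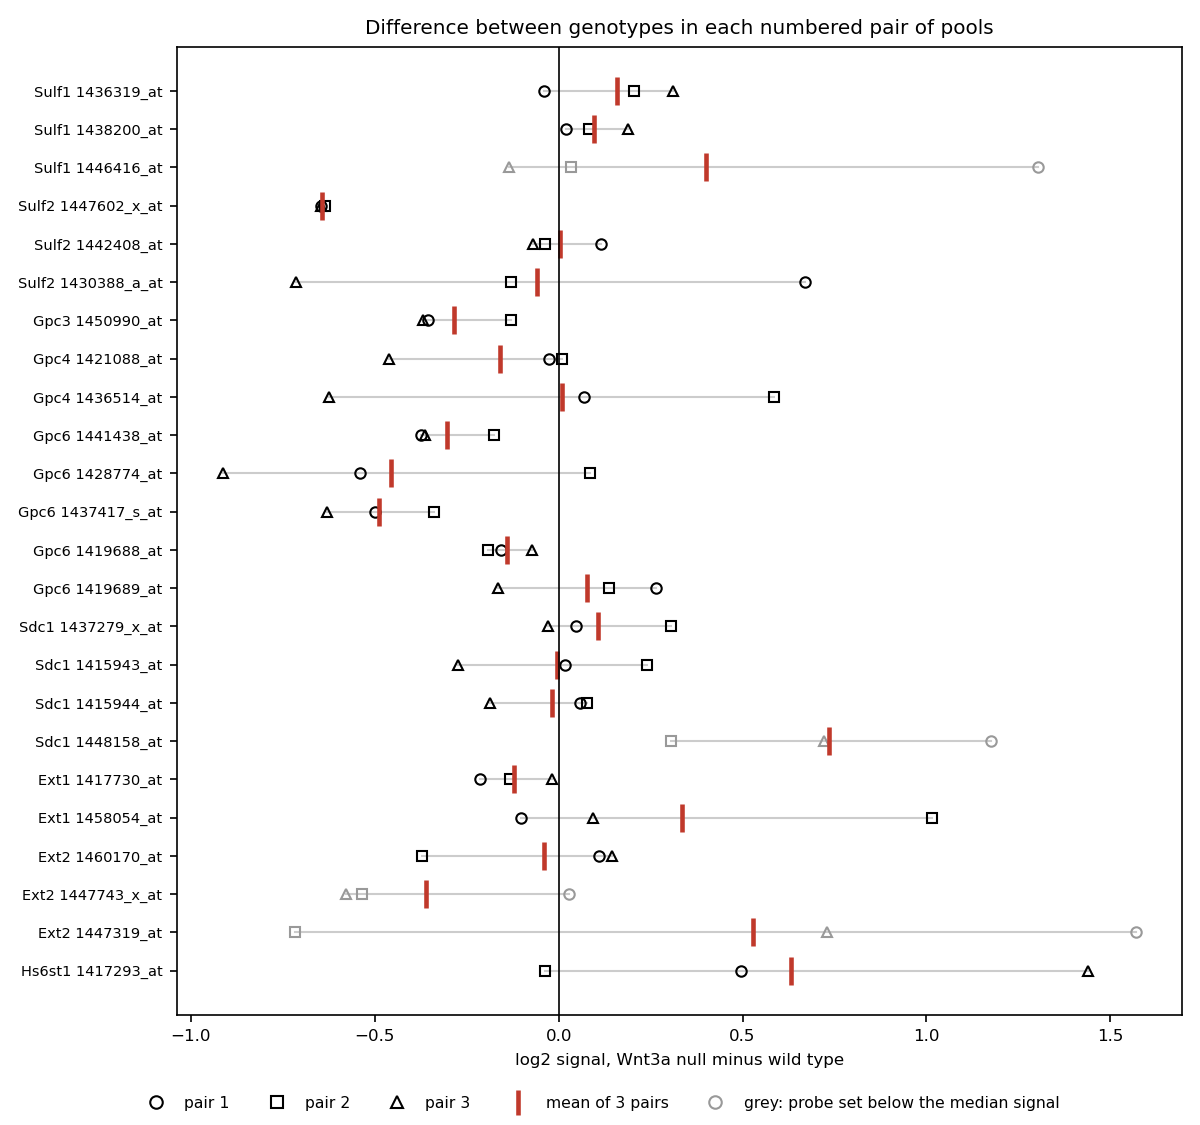
Log2 difference between genotypes (x axis, null minus wild type) for each numbered pair (open symbols) and their mean (red bar), 1 row per probe set; grey symbols are probe sets below the median signal. Gpc3 and 3 Gpc6 probe sets lie left of 0 in all 3 pairs, and Sulf2 1447602_x_at shows the tightest pairs, with an SD of 0.0058.

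Sdc1, a syndecan that spans the membrane of epithelial cells, did not differ in 1 direction on its 3 brighter probe sets. Probe set 1437279_x_at had 2136, 3322 and 2056 in null pools, against 2069, 2689 and 2097 in wild-type pools. Pool 2 was again the highest in both genotypes, as for Sulf2 1447602_x_at and 1442408_at, and the mean difference was 0.11 ± 0.18. Probe set 1415943_at had 1507, 1185 and 1222 in null and 1488, 1004 and 1478 in wild-type pools, with pool 2 the lowest in both and a mean difference of -0.01 ± 0.26. Probe sets of the same gene thus ranked pool 2 in opposite ways. Probe set 1415944_at averaged -0.02 ± 0.15, and the dim 1448158_at had 21.3 to 90.2 in the null and 17.2 to 54.6 in the wild type, higher in null in each pair.

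Ext1 and Ext2 form the enzyme complex that lengthens the chain. Ext1 1417730_at had 1029, 1328 and 1284 in null pools, against 1194, 1457 and 1301 in wild-type pools, lower in null in each pair, with a mean log2 difference of -0.12 ± 0.10. Its other probe set, 1458054_at, had 96.6, 96.7 and 105 in null pools, against 104, 47.8 and 98.7 in wild-type pools. Wild-type pool 2 alone sat apart there, and without that pool the difference was -0.02. Ext2 1460170_at had 1386, 1231 and 1065 in null pools, against 1285, 1592 and 963 in wild-type pools, a mean of -0.04 ± 0.29 with pairs of both signs. The other 2 Ext2 probe sets were dim, at 4.61 to 57.7 in the null and 2.78 to 56.6 in the wild type.

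Hs6st1, which adds the 6-O-sulfate group, had 1 probe set, at 162, 155 and 205 in null pools, against 115, 159.5 and 75.8 in wild-type pools. Null pools 1 and 3 were above all wild-type pools, and null pool 2 was just below wild-type pool 2. The pair differences were 0.49, -0.04 and 1.44, a mean of 0.63 ± 0.75 (SD over 3 pairs), so the spread between pairs was larger than the mean. Over the alternatives run, leaving out each array among them, the difference ranged from 0.23 to 0.97.

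Pools of the same number also held like places for part of the probe sets. In 10 of the 24 the 3 pools had the same order of signal in both genotypes, against 24.1% of all probe sets, and among the 20 brighter ones in 8, against 30.8%. The orders were not the same from gene to gene: pool 2 was highest for Sulf2 1447602_x_at and lowest for Gpc3 and Gpc6 1437417_s_at in both genotypes.

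Other genes of heparan sulfate metabolism, listed by textbook role, were not called either. Of 50 such genes 47 were measured, by 97 probe sets, of which limma called 0 lower and 0 higher at an adjusted p under 0.05, while an unadjusted p under 0.05 was reached by 2 lower and 2 higher ones. The smallest adjusted p among them was 0.467. The fit with block, trend and robust options called 0 as well, with 9 at an unadjusted p under 0.05, against 7.67% of all probe sets. By mean, 52 were lower and 45 higher in null pools, with a median log2 difference of -0.04, against 0.01 over all probe sets. The groups did not overlap for 4 lower and 4 higher, against 4.41% and 5.57% of all. Limma without block or options called 0 of all probe sets, including those that did not overlap. Among the lower ones were Cdx1 and Sp5, at log2 differences of -1.26 and -1.69 (limma adjusted p = 0.344 and 0.470). Axin2 had -1.05 on its brighter probe set (limma adjusted p = 0.425), also without overlap, and 0.26 on a dim one. A gene not called here is thus not shown to be unchanged.

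Core proteins (18 probe sets of 9 genes) had a median log2 difference of 0.13. Sdc2, a syndecan of mesenchymal cells, had 588, 434 and 352 on 1417011_at in null pools, against 317, 261 and 366 in wild-type pools. The log2 difference was 0.52 ± 0.28 (SE, limma adjusted p = 1.00), with 1 wild-type pool above the lowest null pool and its other 3 probe sets at -0.14 to 0.61. The Gpc5 probe set was dim, at 3.32 to 10.3 in the null and 5.59 to 23.6 in the wild type. Genes of the linker and of chain synthesis (16 probe sets of 8 genes) had a median of -0.01. B4galt7, which adds the first galactose of the linker, had 86.7, 161 and 112 on 1426304_x_at in null pools, against 43.1, 66.2 and 81.1 in wild-type pools. Its groups did not overlap, at a log2 difference of 0.92 (limma adjusted p = 0.987), and its other probe set had 0.31. B3gat3, which adds the linker's glucuronic acid, had -0.64 on 1 probe set and 0.00 on the other.

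Sulfation and epimerisation genes (29 probe sets of 13 genes) had a median of -0.07. Hs3st1, a 3-O-sulfotransferase, had 172, 234 and 99.2 in null pools, against 63.7, 61.1 and 77.4 in wild-type pools. All 3 null pools were above all wild-type pools, at a log2 difference of 1.24 ± 0.37 (SE, limma adjusted p = 0.869). Hs3st4, of the same enzyme family, was dim, with 3.68 to 5.41 in the null and 16.6 to 51.1 in the wild type, differing by -2.57 on the log2 scale (limma adjusted p = 0.467). Neither passed the test.

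Genes that supply the chain's precursors (12 probe sets of 6 genes) had a median of -0.08. The 7 at or above the median signal were all lower by mean, against 48.3% of all probe sets. Their log2 differences were only -0.18 to -0.05, each smaller in size than its limma SE. The 5 higher ones of the list were all below the median signal. The 2 genes with the smallest p-values had them on dim probe sets, neither past the threshold (limma adjusted p = 0.992 and 1.00). These were the sulfate carrier Slc26a2 at 0.71 and Papss2, which makes the sulfate donor, at 1.93. Other probe sets of Slc26a2 went the other way, at -0.18 to -0.11, and those of Papss2 were at 0.31 to 1.06. The formylglycine enzyme Sumf1, which activates sulfatases such as Sulf1 and Sulf2, had log2 differences of 0.12 and -0.06 on its probe sets. Its relative Sumf2 had -0.35 and -0.22, with a list median of -0.14. Chain breakdown genes (18 probe sets of 9 genes) had a median of -0.12. The glucuronidase Gusb had 283, 162 and 193 on 1430332_a_at in null pools, against 166, 138 and 125 in wild-type pools, a difference of 0.54, and -0.18 on its other probe set. Ids, a lysosomal sulfatase, had -1.20 on a dim probe set and -0.75 to 0.85 on its other 5.

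**Figure D4:**
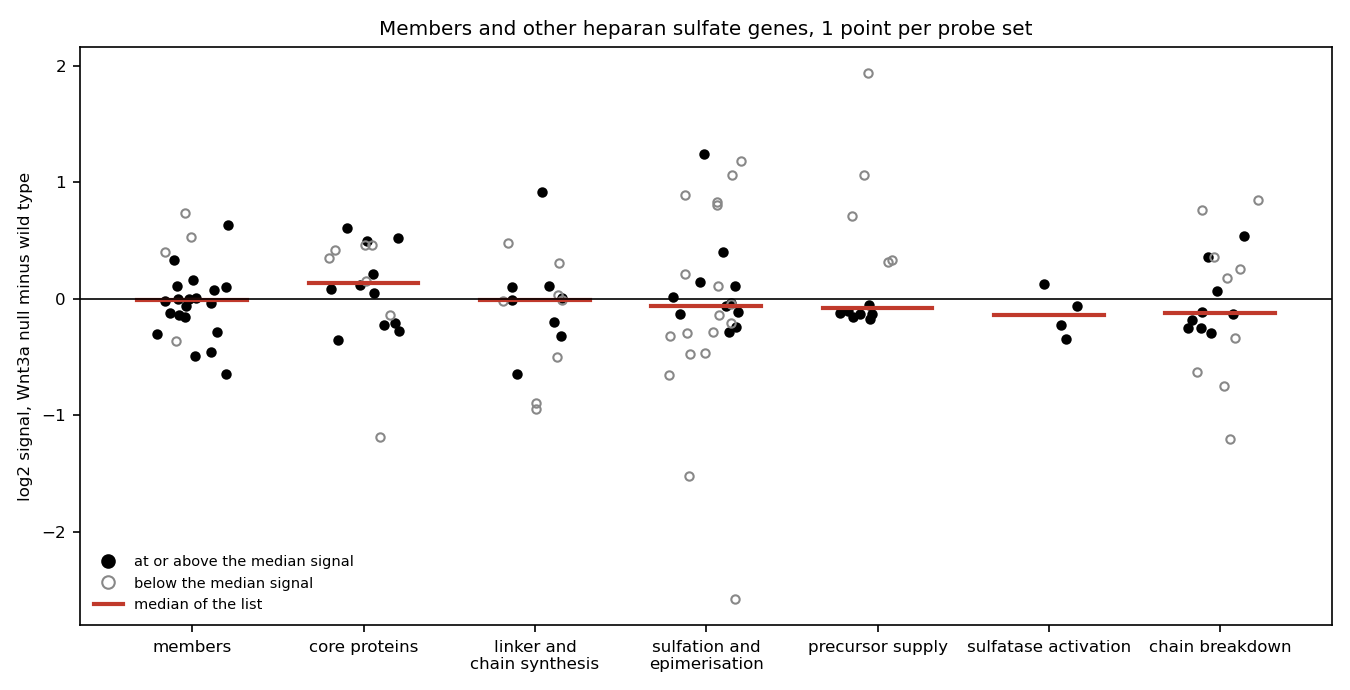
Log2 difference between genotypes (y axis, null minus wild type) for the 24 probe sets described first (members) and the 97 of other heparan sulfate genes by role; filled points are at or above the median signal and red bars are list medians. All 7 medians lie between -0.14 and 0.13, and the widest points are mostly open ones.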

How the data were processed

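RNA of the node and primitive streak region was amplified in 2 cycles per the labels' protocols, from 30 to 50 ng per embryo. For each Affymetrix mouse genome array 3 embryos were pooled, with 600 ng of pooled cRNA, the amplified product. The deposited table gives 1 linear intensity per probe set and array. The submitters' processing notes name RMA, but the deposited intensities are linear with a mean of 500 after trimming 2% at each end, which is not the form of RMA output. How they were made is not stated. The test assumed log2 values, so log2 was taken first, with no floor and no further background correction. The 64 control probe sets were left out.

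Gene symbols came from the platform annotation: of 45037 probe sets, 34945 have 1 symbol, 932 several and 9160 are unnamed here. Chromosomes and upstream sequences came from RefSeq (GRCm38.p6). Null was compared with wild type over all probe sets with limma 3.58.1 in R 4.3.3 (lmFit, eBayes, two-sided, Benjamini-Hochberg, threshold 0.05). The fit was also run on simulated signals with independent noise, to check the median estimate against the planted change. Rates of true and false calls are not given here. Whether pools of a genotype share a litter is not stated, so p-values without a replicate block measure the spread between pools. Those with the block measure the spread of the differences within replicate numbers.

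The genes, lists and tests were chosen with earlier results of these data known. Named genes were all probe sets of the 10 genes, the 2 genes of each list with the smallest p, and the 5 probe sets most like the Sulf2 one. Cdx1, Sp5 and Axin2 were added as examples of differences that limma did not call. Marker lists are given as sums with counts of probe sets, and the sums of visceral endoderm also by pool. Deviations from genotype means correlated at 0.331, 0.343 and 0.210 within replicate numbers 1, 2 and 3 over the 22519 probe sets at or above the median signal, against at most -0.0475 between numbers. Over all probe sets the values were 0.0537, 0.0524 and 0.0338. The numbers were taken as pairing the pools by the first set (bound 0.1), although no label states what same-numbered pools have in common.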

Additional observations from a re-analysis of the deposited data

How the results depend on the processing

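With limma, 0 probe sets of all, 0 of the 24 and 0 of the other 97 were called under the replicate block alone, a filter at the median signal, log2(signal + 50), quantile and cyclic loess normalization, median centring, array weights, an adjusted p under 0.10, and without each array in turn (range 0 to 0). Trend and robust options alone called 1 of all and 0 of the 24. With the replicate block, trend and robust together 22 were called, 1 of them of the 24 (44 and 1 at an adjusted p under 0.10), and with log2(signal + 50) as well 16 and 0. Leaving out both pools of a number in this fit, chosen after seeing the data, gave 21 of all without number 1, 138 without number 2 and 27 without number 3, with 0, 1 and 0 of the 24. The replicate block changed no call by itself. The cause of the differences between fits was not tested. The median of the 24 stayed between -0.07 and 0.07. Of the 24 probe sets, 11 kept the sign of their difference under all alternatives run (Sulf2 1447602_x_at between -0.88 and -0.40, Gpc3 between -0.48 and -0.15), and 13 changed it under at least 1.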
